A study of Mus musculus with 12 samples.

Results

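The 8 genes described here encode the main proteins of the red cell membrane and the receptors through which red cell precursors take up iron and receive their survival signal: *Slc4a1*, *Ank1*, *Sptb*, *Epb42*, *Rhag*, *Kel*, *Epor* and *Tfrc*. They were chosen by name, and all 8 were found among the 23420 genes of each count table, with *Epb42* listed under its older symbol *Epb4.2*. The libraries were made from RNA of entire mouse embryos, homogenized at E12.5, and belong to 2 lines. In the *Carm1* line, on a C57BL/6 background, 3 embryos homozygous for the null allele *Carm1tm1Mtb* (*Carm1* KO/KO) were compared with 3 wild-type embryos. In the *Pax3* line, on a mixed background, 3 embryos homozygous for the null allele *Pax3Sp2H* (*Pax3* Sp2H/Sp2H), also called Splotch, were compared with 3 wild-type embryos. CARM1 is an enzyme that methylates arginines of histones and other proteins, and PAX3 is a transcription factor of neural crest and muscle precursors. Embryos came from matings of heterozygotes, so the mutants carried the allele in every tissue, the labels give no treatment, and each embryo gave 1 library.

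At this stage the circulation holds large primitive red cells from the yolk sac, and the fetal liver has begun to make definitive red cells. As a red cell precursor matures, it first depends on erythropoietin, which acts through EPOR, and takes up iron carried by transferrin through TFRC for the synthesis of heme. It then builds a membrane in which the anion exchanger SLC4A1 (band 3) is tied by ankyrin (ANK1) and protein 4.2 (EPB42) to a spectrin network, of which SPTB is the beta chain. RHAG holds the Rh complex in the membrane, and KEL is a surface metalloprotease that carries the Kell blood group antigens. Since RNA came from whole embryos, fewer cells of a type and less RNA per cell cannot be told apart in any of the values.

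Total counts per library ranged from 17183344 to 23518692, and the members held 217 to 12136 counts in a library of the *Carm1* line and 287 to 9188 in one of the *Pax3* line. Levels are counts scaled to library size (CPM), with library sizes scaled by TMM within each line, and log2 fold changes and their adjusted *P* values come from the quasi-likelihood test of edgeR, adjusted by Benjamini and Hochberg's method over all genes tested in a line. A gene is called higher or lower at an adjusted *P* below 0.05. Each *P* value sets a group difference against the variation among these embryos only, counting error included. The spread of a gene is estimated with help from the other genes. *Carm1* was measured at 144 ± 6.99 CPM in wild types and 72.3 ± 3.55 CPM in the 3 mutants (SD, n = 3), a log2 fold change of -0.998 (edgeR, adjusted *P* = 1.2e-15), so the allele left transcripts that were counted. *Pax3* was measured at 28.1 ± 3.0 CPM in wild-type and 20.8 ± 2.40 CPM in *Pax3* Sp2H/Sp2H embryos (SD, n = 3), a log2 fold change of -0.43 (edgeR, adjusted *P* = 0.0014). Wild-type replicate 3 of the *Carm1* line held 4804 counts on 4 Y-linked genes and the other libraries of that line 2 to 5, whereas in the *Pax3* line wild-type replicates 2 and 3 and *Pax3* Sp2H/Sp2H replicate 3 held 4447, 6118 and 6102 and the others 0 to 23.

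Promoter sequences are shown for 4 members that were lower in the *Carm1* line, of which *Epor* and *Kel* hold the form of the GATA motif named next and *Rhag* and *Sptb* do not hold that form. They come from RefSeq (GRCm38.p6), whose table held 6 of the 8 members, and each runs from 250 to 31 bases before the RefSeq start of the gene, 5′ to 3′ on the strand of the gene. Capitals mark AGATAA or its reverse complement TTATCT, a form of the motif bound by GATA factors, and CACCC or its reverse complement GGGTG, the core of the motif bound by KLF1 and related factors. The intervals are chr9:21963607-21963826 (minus strand) for *Epor*, chr6:41704356-41704575 (minus strand) for *Kel*, chr17:40810899-40811118 (plus strand) for *Rhag* and chr12:76710578-76710797 (minus strand) for *Sptb*.
Epor: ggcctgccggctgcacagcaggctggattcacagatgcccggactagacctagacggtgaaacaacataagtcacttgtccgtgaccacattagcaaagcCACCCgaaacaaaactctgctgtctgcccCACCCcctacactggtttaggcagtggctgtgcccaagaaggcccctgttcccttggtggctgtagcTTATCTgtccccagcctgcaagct
Kel: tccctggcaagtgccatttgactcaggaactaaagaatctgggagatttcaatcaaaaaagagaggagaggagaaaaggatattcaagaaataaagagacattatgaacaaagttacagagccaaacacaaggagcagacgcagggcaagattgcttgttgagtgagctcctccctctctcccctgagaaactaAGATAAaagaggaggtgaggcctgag
Rhag: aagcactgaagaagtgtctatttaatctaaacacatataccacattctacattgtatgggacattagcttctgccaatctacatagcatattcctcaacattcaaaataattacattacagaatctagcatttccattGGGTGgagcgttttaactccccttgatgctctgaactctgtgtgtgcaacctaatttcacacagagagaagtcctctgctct
Sptb: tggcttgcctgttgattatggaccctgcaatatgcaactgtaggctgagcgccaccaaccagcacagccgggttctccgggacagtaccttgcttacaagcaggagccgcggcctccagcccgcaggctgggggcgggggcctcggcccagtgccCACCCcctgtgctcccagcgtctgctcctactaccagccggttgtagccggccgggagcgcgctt
Over the whole RefSeq windows of 300 bases, searched on both strands, AGATAA occurred in 11.2% of 32851 promoters and in those of 3 of the 6 members (*Epb42*, *Epor* and *Kel*). CACCC occurred in 57.5% of all promoters and in those of 5 of the 6 members. The E-box CANNTG occurred in 72.3% of all promoters and in those of 5 of the 6 members. In *Epor* the AGATAA match began 54 bases and in *Kel* 56 bases before the start. A match is a run of letters and not evidence that a factor is bound there. Other forms of the GATA motif were not searched, so a promoter without AGATAA may hold another form.

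*Carm1* KO/KO embryos had less RNA of all 8 members than wild-type embryos, with changes of -35.1% to -20.7% in the mean CPM, and in each of them all 3 *Carm1* KO/KO libraries lay below all 3 wild-type libraries. Their median log2 fold change was -0.49, against 0.0014 over the 15811 genes tested. Of these genes, 7.83% were called lower, 5.49% were called higher, and 15.7% had every *Carm1* KO/KO library below every wild-type library.

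The genes of band 3 and of its ties to the skeleton were lower together. *Slc4a1*, which encodes the chloride-bicarbonate exchanger and the most abundant protein of the red cell membrane, was measured at 567, 512 and 592 CPM in wild-type and at 375, 429 and 406 CPM in *Carm1* KO/KO replicates 1 to 3. The lowest wild-type library was well above the highest mutant library. The means were 557 ± 40.6 and 403 ± 26.8 CPM (SD, n = 3), with a log2 fold change of -0.47 ± 0.053 (SE, edgeR adjusted *P* = 3e-07). *Ank1*, the adaptor between band 3 and spectrin, was measured at 128, 108 and 118 CPM in wild-type and at 83.8, 98.2 and 97.8 CPM in *Carm1* KO/KO libraries. The groups were separate, though wild-type replicate 2 and mutant replicate 2 came close to each other. The log2 fold change was -0.33 ± 0.065 (SE, edgeR adjusted *P* = 0.0018). In the annotation, exons of *Ank1* overlap those of the antisense gene *Gm15816* at 11 places, and no strand setting was stated for the counting. *Sptb*, the spectrin chain that carries the ankyrin site, was measured at 139, 116 and 119 CPM in wild-type and at 85.8, 103 and 97.4 CPM in mutant libraries. Wild-type replicate 1 was the highest and mutant replicate 1 the lowest, as for *Ank1*. The log2 fold change was -0.39 ± 0.077 (SE, edgeR adjusted *P* = 0.0054). *Epb42*, which braces band 3 against ankyrin, was measured at 48.3, 50.8 and 57.0 CPM in wild-type and at 30.6, 39.4 and 34.1 CPM in mutant libraries. No mutant library reached the wild-type range. The log2 fold change was -0.59 ± 0.079 (SE, edgeR adjusted *P* = 2.5e-05).

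The other surface proteins showed the same order of groups. *Rhag*, an ammonia and gas channel relative without which the Rh proteins do not reach the membrane, was measured at 32.9, 31.7 and 37.4 CPM in wild-type and at 21.2, 23.7 and 21.3 CPM in *Carm1* KO/KO libraries. No mutant library reached the wild-type range. The mean went from 34.0 ± 3.01 to 22.1 ± 1.41 CPM (SD, n = 3), with a log2 fold change of -0.62 ± 0.077 (SE, edgeR adjusted *P* = 5.5e-07). *Kel* was measured at 82.9, 84.5 and 100.3 CPM in wild-type and at 60.7, 66.2 and 61.6 CPM in mutant libraries. Wild-type replicate 3 stood above the other wild-type libraries, and the mutant libraries lay close together. This was a log2 fold change of -0.51 ± 0.062 (SE, edgeR adjusted *P* = 1.6e-06).

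Both receptors were lower as well. *Epor* was measured at 19.98, 19.5 and 21.8 CPM in wild-type and at 13.7, 13.6 and 12.8 CPM in *Carm1* KO/KO libraries. The libraries of each group were within a narrow range and the groups far apart. The log2 fold change was -0.62 ± 0.089 (SE, edgeR adjusted *P* = 8.1e-06). *Tfrc*, which brings transferrin into the cell in any dividing tissue and most of all in red cell precursors, was measured at 213, 249.99 and 245 CPM in wild-type and at 191, 188 and 166 CPM in mutant libraries. Mutant replicate 3 was the lowest and wild-type replicate 1 the nearest to the mutants. This was a log2 fold change of -0.38 ± 0.061 (SE, edgeR adjusted *P* = 0.00043).

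All 8 calls held when any 1 library of the *Carm1* line was left out, wild-type replicate 3 with its Y-linked counts included. In a single fit of all 12 libraries, which gives each gene 1 estimate of spread for both lines, the fold changes were close to those above but only 3 members were called (*Rhag*, *Epor* and *Tfrc*), and the adjusted *P* values of the other 5 lay between 0.10 and 0.21.

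**Figure D1:**
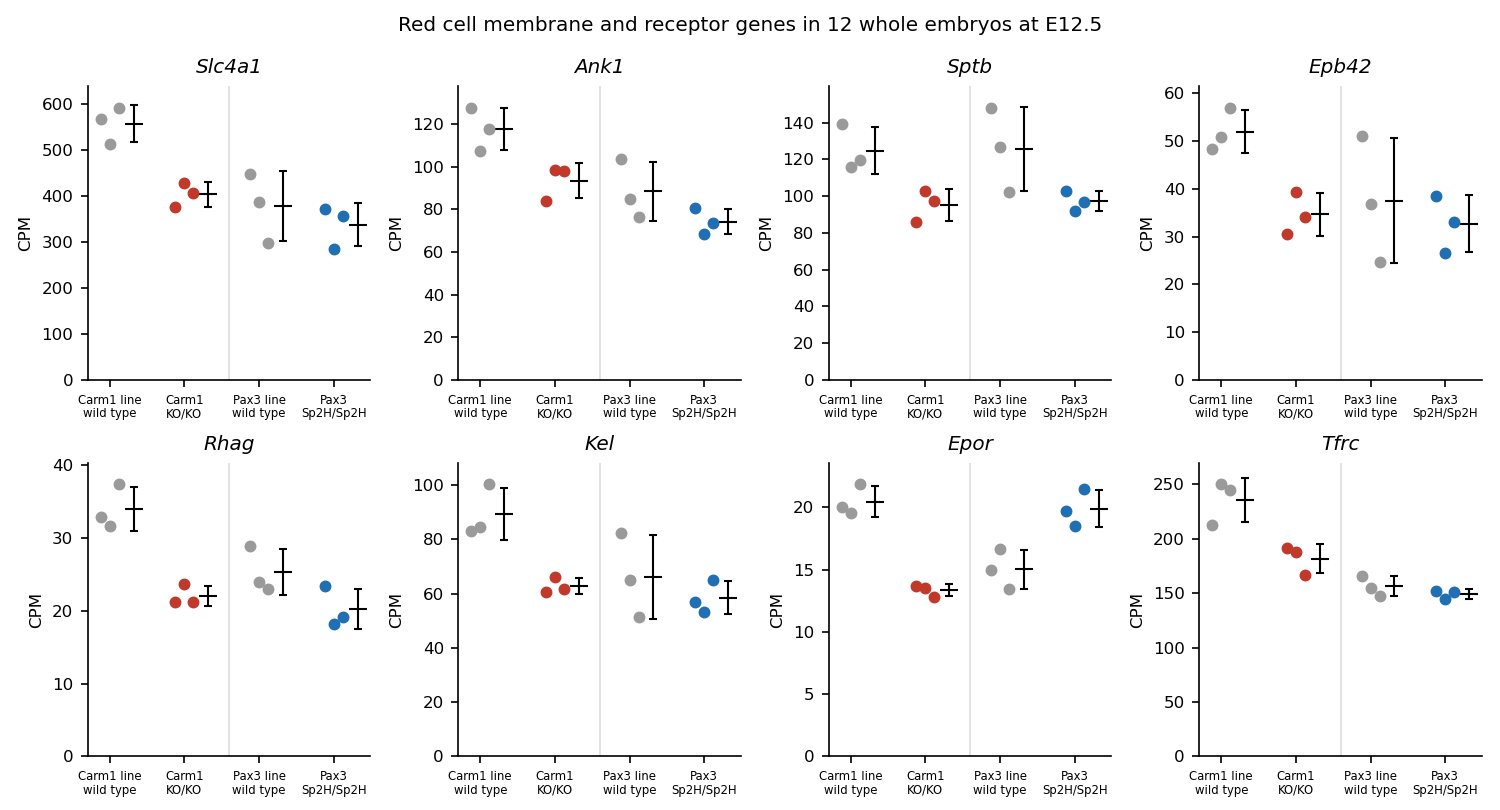
CPM (y axis, from 0) of the 8 members in each of 12 libraries, by group (x axis); points are embryos, and the bar beside them is the mean ± SD (n = 3). In the *Carm1* line every *Carm1* KO/KO point lies below every wild-type point in all 8 panels, while in the *Pax3* line the groups are separate only for *Epor*, where the *Pax3* Sp2H/Sp2H points lie above.

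Per length of exon, *Slc4a1*, *Tfrc* and *Kel* had the highest mean levels in all 4 groups, with the libraries of *Tfrc* and *Kel* separate only in *Carm1* KO/KO embryos. In wild-type embryos of the *Carm1* line, *Slc4a1* had 114 ± 8.33 CPM per kb of exon (SD, n = 3), followed by *Tfrc* with 38.1 ± 3.26 and *Kel* with 32.2 ± 3.46, whose libraries overlapped. *Rhag* followed with 14.5 ± 1.29 CPM per kb and was separate from both neighbours. *Epor* (10.3 ± 0.617), *Sptb* (10.3 ± 1.04), *Epb42* (9.60 ± 0.828) and *Ank1* (8.70 ± 0.741 CPM per kb) each overlapped the next in order. Among mutants of the same line *Slc4a1* had 82.5 ± 5.49 and *Tfrc* 29.4 ± 2.17 CPM per kb, again followed by *Kel* and *Rhag*. Counts of the lines were scaled separately, and levels were not tested between them.

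In the *Pax3* line 1 of the 8 members was called lower (*Rhag*) and 1 higher (*Epor*), against 10.5% of 15724 genes called lower and 14% called higher. Their median fold change on the log2 scale was -0.19, against -0.0026 over all genes tested. In 7 of the 8 members the *Pax3* Sp2H/Sp2H and wild-type libraries overlapped, and the share of all genes that did so was not counted in this line.

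*Epor* was measured at 15.0, 16.6 and 13.4 CPM in wild-type and at 19.7, 18.5 and 21.4 CPM in *Pax3* Sp2H/Sp2H replicates 1 to 3. Every mutant library was above every wild-type library, the reverse of the order in the *Carm1* line. The means were 15.0 ± 1.59 and 19.9 ± 1.48 CPM (SD, n = 3), with a log2 fold change of 0.41 ± 0.096 (SE, edgeR adjusted *P* = 0.0025). With offsets for exon length and GC content in each library, the log2 fold change was 0.16 and the call was lost (edgeR adjusted *P* = 0.25).

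*Rhag* was measured at 28.9, 24.03 and 22.98 CPM in wild-type and at 23.4, 18.3 and 19.2 CPM in *Pax3* Sp2H/Sp2H libraries. Mutant replicate 1 lay within the wild-type range and the other 2 mutant libraries below it. The log2 fold change was -0.32 ± 0.10 (SE, edgeR adjusted *P* = 0.022). The call was lost without wild-type replicate 1 (log2 fold change -0.21, adjusted *P* = 0.15), without mutant replicate 2 (-0.25, 0.12) and without mutant replicate 3 (-0.28, 0.11).

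For the other 6 members no call was made. *Slc4a1* was measured at 448, 387 and 297 CPM in wild-type and at 371, 285 and 357 CPM in *Pax3* Sp2H/Sp2H libraries. Wild-type replicate 1 was the highest and replicate 3 among the lowest, so that the wild-type embryos alone spanned most of the range. The difference of -0.16 had a 95% interval of -0.70 to 0.38 on the log2 scale (edgeR, adjusted *P* = 0.64), and it was -0.016 without wild-type replicate 1 and -0.30 without replicate 3. *Epb42* spread even more, with 51.0, 36.9 and 24.7 CPM in wild-type and 38.5, 26.6 and 33.0 CPM in mutant libraries. All 3 mutant libraries lay within the wild-type range, and the log2 difference of -0.20 had an interval of -1.10 to 0.71 (edgeR, adjusted *P* = 0.73). *Kel* was measured at 82.2, 65.2 and 51.4 CPM in wild-type and at 56.8, 53.3 and 65.1 CPM in mutant libraries. Its mutant libraries also lay within the wild-type range, and the log2 difference was -0.18, with an interval of -0.73 to 0.38 (edgeR, adjusted *P* = 0.61).

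*Ank1* and *Sptb* came nearer to separate groups. *Ank1* was measured at 104, 85.0 and 76.4 CPM in wild-type and at 80.4, 68.6 and 73.7 CPM in *Pax3* Sp2H/Sp2H libraries. Mutant replicate 1 alone exceeded the lowest wild-type library, and the log2 difference was -0.25, with an interval of -0.50 to -0.0040 (edgeR, adjusted *P* = 0.13). *Sptb* was measured at 148, 127 and 102 CPM in wild-type and at 103, 92.1 and 96.9 CPM in mutant libraries. Mutant replicate 1 and wild-type replicate 3 were nearly equal, and the log2 difference was -0.37, with an interval of -0.71 to -0.020 (edgeR, adjusted *P* = 0.12). Both genes were called lower with a term for Y-linked counts (adjusted *P* = 0.0087 and 0.029) and without wild-type replicate 3 (0.0047 and 1.4e-05), when *Kel* was called lower too (edgeR, adjusted *P* = 0.032). Without wild-type replicate 1 the log2 differences shrank to -0.12 for *Ank1* and -0.23 for *Sptb* (edgeR, adjusted *P* = 0.23 and 0.055). *Tfrc* was measured at 166, 155 and 148 CPM in wild-type and at 152, 144 and 151 CPM in mutant libraries. The groups overlapped within a narrow range, and the log2 difference was -0.064, with an interval of -0.18 to 0.049 (edgeR, adjusted *P* = 0.43).

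**Figure D2:**
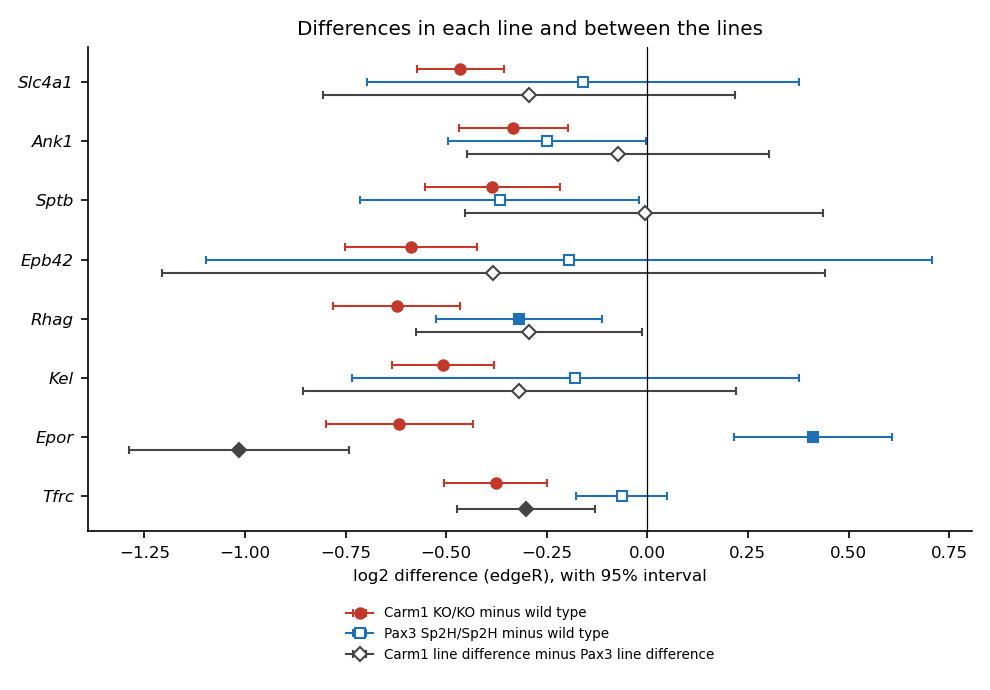
Log2 differences (x axis) of the 8 members (y axis) in each line, and the difference between the lines, with 95% intervals from edgeR; filled symbols passed an adjusted *P* of 0.05. The 8 *Carm1* line values lie between -0.62 and -0.33, and the difference between the lines is filled for *Epor* (-1.02) and *Tfrc* (-0.30).

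Whether a member responded differently in the lines was tested as an interaction in 1 edgeR fit of the 12 libraries, in which 19.1% of 16292 genes were called in either direction. The lines differ in strain and colony as well as in the targeted gene, and these cannot be told apart. For *Epor*, the log2 fold change in the *Carm1* line was lower than that in the *Pax3* line by -1.02 ± 0.135 (SE, edgeR adjusted *P* = 2.6e-06). For *Tfrc*, the difference was -0.30 ± 0.084 (SE, edgeR adjusted *P* = 0.011). Both calls held in each of 19 alternatives, with the difference between -1.09 and -0.77 for *Epor* and between -0.39 and -0.24 for *Tfrc*. For the other 6 members the difference was not called, and its 95% interval ran from -0.81 to 0.22 for *Slc4a1*, from -0.45 to 0.30 for *Ank1*, from -0.45 to 0.44 for *Sptb*, from -1.21 to 0.44 for *Epb42*, from -0.57 to -0.013 for *Rhag* and from -0.86 to 0.22 for *Kel* on the log2 scale. For 5 of these genes, all but *Rhag*, the interval held 0 and also a difference as large as the change in the *Carm1* line, so neither a like nor an unlike response was shown.

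Levels were also set against the other 7 members of the same library. For *Epor* in the *Pax3* line, the log2 level relative to their geometric mean was -2.81, -2.39 and -2.42 in wild-type and -2.05, -1.88 and -1.85 in *Pax3* Sp2H/Sp2H libraries. All mutant libraries were higher, by 0.61 on average. For *Sptb* and *Ank1* the same measure in that line was lower in every mutant library than in every wild-type library, with mean differences of -0.26 and -0.13. *Epor*, which was higher in these mutants, is among the 7 members that *Sptb* and *Ank1* were set against. The measure for *Epor* in the *Carm1* line was -2.54, -2.52 and -2.50 in wild-type and -2.54, -2.74 and -2.71 in *Carm1* KO/KO libraries, lower by 0.15 on average and close between mutant replicate 1 and the wild types. For *Rhag* in the *Carm1* line every mutant library was also below every wild-type library, with a mean difference of -0.155.

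**Figure D3:**
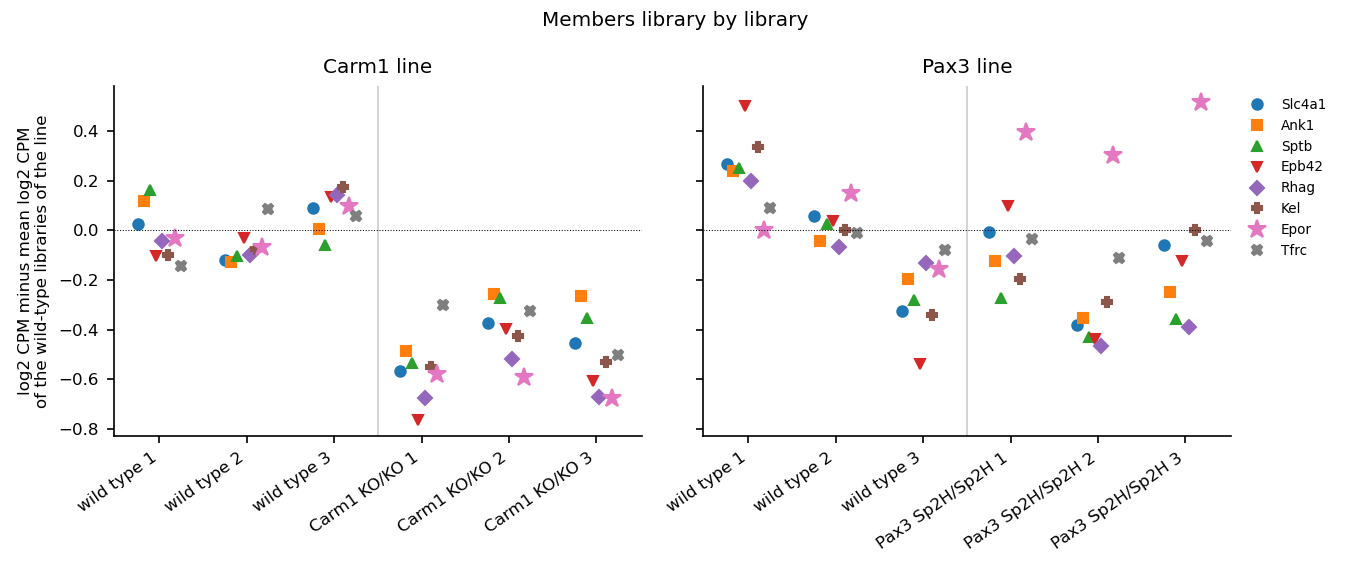
Log2 CPM of the 8 members minus the mean of the wild-type libraries of the line (y axis) in each library (x axis), with 1 symbol per gene and *Epor* drawn larger. In the *Carm1* line the 3 *Carm1* KO/KO libraries lie below 0 for all 8 members, and in the *Pax3* line the members other than *Epor* and *Tfrc* spread from wild-type replicate 1 at the top to replicate 3 while *Epor* alone is above its wild-type libraries in all 3 *Pax3* Sp2H/Sp2H embryos.

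The levels of the members were also compared from embryo to embryo. Over 12 libraries, with the mean of each line removed, the 15 pairs among the 6 members other than *Epor* and *Tfrc* had Pearson's r between 0.81 and 0.97 (median 0.88), a description that includes the differences between mutant and wild-type embryos and rests on values that share library and depth. The 6 pairs of *Tfrc* with them had r between 0.59 and 0.84 over 12 libraries, between 0.58 and 0.90 within the *Carm1* line and between 0.86 and 0.97 within the *Pax3* line, where the 15 pairs had 0.63 to 0.97. The 7 pairs with *Epor* had r between 0.83 and 0.99 within the 6 libraries of the *Carm1* line and between -0.60 and 0.054 within those of the *Pax3* line. Values of r within a line also include the differences between mutant and wild-type embryos given above. They are no separate measure of variation among embryos of 1 group. Among 14842 other genes that averaged 1 CPM or more, the closest to the mean of the members over 12 libraries were *Ermap* (r = 0.98), which carries the Scianna blood group, *Gclm* (0.96), *Fech* (0.96), the enzyme of the last step of heme synthesis, *Fam46c* (0.95) and *Alas2* (0.95), the enzyme of the first step in red cells. By single member the closest gene was *Ermap* for *Slc4a1*, *C3* for both *Ank1* and *Sptb*, *Alas2* for both *Epb42* and *Kel*, *Fech* for *Rhag* and *Rgs17* for *Epor*, with r between 0.95 and 0.98.

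The other genes of the membrane skeleton were largely lower in *Carm1* KO/KO embryos, with 9 of 12 called lower and none higher, and a median log2 fold change of -0.27. Shares over all genes tested were 7.83% lower and 5.49% higher in the *Carm1* line, and 10.5% lower and 14% higher in the *Pax3* line. The counts of this list and of those below are to be read beside these shares. *Dmtn*, which bundles actin at the junctions of the network, fell by 0.65 on the log2 scale (adjusted *P* = 5.3e-10). *Tmcc2* fell by 0.51 (adjusted *P* = 4.7e-08), and *Stom*, which encodes stomatin, fell by 0.29 (adjusted *P* = 0.0022). *Gypc*, which anchors protein 4.1, fell by 0.18 (adjusted *P* = 0.040), a call that only 4 of 14 alternatives kept. *Epb41*, which encodes protein 4.1 and is used in many tissues, had a log2 fold change of -0.051 (adjusted *P* = 0.48). *Pax3* Sp2H/Sp2H embryos had 3 of the 12 called lower and none higher: *Epb41* fell by 0.22 (adjusted *P* = 0.014), *Gypc* by 0.28 (adjusted *P* = 0.012) and *Actb* by 0.22 (adjusted *P* = 0.014).

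Of 16 other surface and transport genes, 10 were called lower and 1 higher in the *Carm1* line, with a median log2 fold change of -0.36. *Rhd*, the Rh partner of RHAG, fell by 0.55 (adjusted *P* = 3e-07), *Cd47*, which joins the band 3 and Rh complex, by 0.44 (adjusted *P* = 3.8e-05), and *Kcnn4*, the calcium-gated potassium channel of red cells, by 0.70 (adjusted *P* = 6.2e-06). *Cd24a* fell by 0.29 (adjusted *P* = 7.5e-05). *Bcam*, the Lutheran antigen that epithelia also carry, was the 1 that rose, by 0.30 (adjusted *P* = 0.0016). *Xk*, to which KEL is linked, had a log2 fold change of -0.20 (adjusted *P* = 0.11). Among them 1 was called lower and 3 higher in the *Pax3* line, against 10.5% and 14% of all genes. *Slc14a1*, a urea transporter, fell by 0.45 (adjusted *P* = 0.0084), while *Icam4* rose by 0.73 (adjusted *P* = 0.00034), *Slc2a1*, a glucose transporter, by 0.22 (adjusted *P* = 0.018) and *Rhd* by 0.30 (adjusted *P* = 0.048), a call kept in 6 of 14 alternatives. *Xk* had a log2 fold change of -0.32 there (adjusted *P* = 0.17).

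Of 15 signalling genes around EPOR that were tested, 2 were called lower and 1 higher in the *Carm1* line, where 13.3% of all genes were called, and 1 lower and 1 higher in the *Pax3* line, where 24.5% were, with medians of -0.029 and -0.0021. In the *Carm1* line *Pik3r1*, a regulatory subunit of PI3 kinase, fell by 0.19 (adjusted *P* = 0.0038), *Pim1*, a kinase gene induced by STAT5, fell by 0.22 (adjusted *P* = 0.0069), and *Podxl* rose by 0.16 (adjusted *P* = 0.031, kept in 7 of 14 alternatives). *Jak2*, the kinase bound to EPOR, had -0.15 in the *Carm1* line (adjusted *P* = 0.078) and fell by 0.23 in the *Pax3* line (adjusted *P* = 0.0077), where *Socs3*, a feedback inhibitor, rose by 0.27 (adjusted *P* = 0.048, kept in 7 of 14). The ligand *Epo* was too low to be tested in either line, with 0.172 to 0.672 CPM in libraries of the *Carm1* line and 0.0894 to 0.509 CPM in those of the *Pax3* line, and its groups overlapped.

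Of 18 genes of transferrin uptake and iron storage around TFRC, 4 were called lower and none higher in the *Carm1* line, against 7.83% and 5.49% of all genes. *Slc25a37*, the mitochondrial iron importer mitoferrin, fell by 0.36 (adjusted *P* = 4e-07), *Abcb10*, its partner, by 0.31 (adjusted *P* = 2.5e-05), *Tfr2*, the second transferrin receptor, by 0.68 (adjusted *P* = 0.0010) and *Fth1*, the ferritin heavy chain, by 0.28 (adjusted *P* = 0.019). *Trf*, which encodes transferrin itself, had -0.21 (adjusted *P* = 0.54) and *Steap3*, the endosomal iron reductase, -0.16 (adjusted *P* = 0.29). Calls in the *Pax3* line were 4 lower and 3 higher, against 10.5% and 14% of all genes. *Trf* fell by 0.33 (adjusted *P* = 0.00010), *Pcbp2* by 0.24 (adjusted *P* = 0.0036), *Ncoa4*, which delivers ferritin for breakdown, by 0.20 (adjusted *P* = 0.030, kept in 9 of 14 alternatives) and *Ireb2*, which stabilizes *Tfrc* RNA when iron is short, by 0.17 (adjusted *P* = 0.019), a change of 0.00 with length and GC offsets. *Slc25a38* rose by 0.27 (adjusted *P* = 0.026), and *Pcbp1* and *Ftl1*, the ferritin light chain, each rose by 0.23 (adjusted *P* = 0.0092 and 0.022), with the sign turned to -0.010 and -0.067 by length and GC offsets.

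Among 14 transcription regulators of red cells, 10 were called lower and 1 higher in the *Carm1* line, with a median log2 fold change of -0.37. *Gata1* fell by 0.62 (adjusted *P* = 4.7e-05) and *Klf1* by 0.57 (adjusted *P* = 1.9e-06), the factors whose motifs were searched above. *Tal1* fell by 0.58 (adjusted *P* = 9.7e-10), *Lmo2* by 0.42 (adjusted *P* = 1.6e-05) and *Nfe2* by 0.57 (adjusted *P* = 3e-05). *Gata2*, which is high in early progenitors, rose by 0.27 (adjusted *P* = 0.014). For the *Pax3* line the counts were 3 lower and 3 higher, against 10.5% and 14% of all genes. *Gata1* and *Klf1* had log2 fold changes of 0.033 (adjusted *P* = 0.84) and 0.052 (adjusted *P* = 0.80), with both turned negative by length and GC offsets (-0.11 and -0.27). *Gfi1b* fell by 0.46 (adjusted *P* = 0.017), *Runx1* by 0.30 (adjusted *P* = 0.025) and *Bcl11a* by 0.17 (adjusted *P* = 0.043, kept in 7 of 14 alternatives), while *Ldb1* rose by 0.34 (adjusted *P* = 7.7e-05), *Lmo2* by 0.27 (adjusted *P* = 0.011) and *Gata2* by 0.28 (adjusted *P* = 0.013).

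The relatives of the members that serve other tissues gave counts near those of all genes in the *Carm1* line, where 2 of 20 were lower and 1 higher, with a median log2 fold change of -0.011. *Mme*, a metalloprotease gene related to *Kel*, fell by 0.33 (adjusted *P* = 0.00013) and *Ghr*, the growth hormone receptor and a relative of EPOR, by 0.25 (adjusted *P* = 0.0018), and *Naaladl1*, a relative of *Tfrc*, rose by 0.42 (adjusted *P* = 0.043, kept in 6 of 14 alternatives). In the *Pax3* line 5 were lower and 3 higher, against 10.5% and 14% of all genes. The anion exchangers *Slc4a2* and *Slc4a3* rose by 0.28 (adjusted *P* = 0.00071) and 0.44 (adjusted *P* = 0.00013), and *Ecel1*, a relative of KEL, rose by 0.34 (adjusted *P* = 0.0093). The ankyrin gene *Ank2* fell by 0.22 (adjusted *P* = 0.0043), the spectrin gene *Sptbn1* by 0.24 (adjusted *P* = 0.0052), *Mme* by 0.27 (adjusted *P* = 0.0054) and *Ghr* by 0.24 (adjusted *P* = 0.015).

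**Figure D4:**
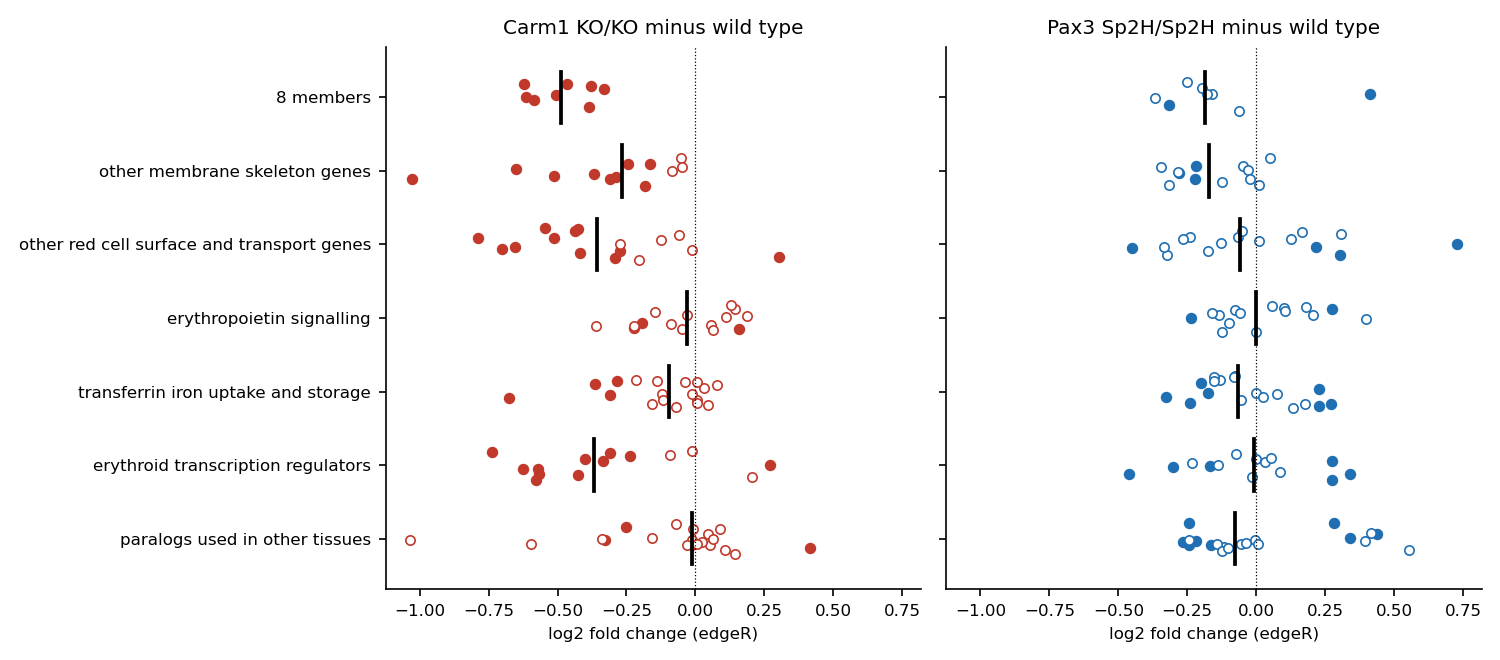
Log2 fold changes (x axis) of the members and of the genes of 6 other lists (y axis) in the *Carm1* line (left) and the *Pax3* line (right); each point is a gene, filled where its adjusted *P* was below 0.05 by edgeR, and the vertical bar is the median of the list. The medians of the members are -0.49 and -0.19, and those of the transcription regulators -0.37 and -0.0089.

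Markers of the cells that make, house or surround red cells were read beside these results, and their part in them was not tested. Of 9 erythroid markers tested, 6 were lower and 1 higher in the *Carm1* line, and the summed CPM of the list overlapped between wild-type (6426 to 11120) and *Carm1* KO/KO embryos (7814 to 9166). Much of that sum was the embryonic globin *Hbb-y*, with 3692 to 7031 CPM in wild-type and 4715 to 5639 CPM in mutant libraries. Its log2 fold change was -0.048 (edgeR adjusted *P* = 0.94), and the sum is no measure of the less abundant markers. The globins did not move as 1 group. *Hbb-bs*, an adult beta globin listed as *Beta-s*, fell from 1926 to 702 CPM (log2 fold change -1.46, adjusted *P* = 0.0083), whereas the embryonic globin *Hbb-bh1* rose from 189 to 468 CPM (1.30, adjusted *P* = 0.037, kept in 9 of 14 alternatives) and the embryonic *Hba-x* had 890.1 and 1904 CPM (1.10, adjusted *P* = 0.077). *Hba-a1* was at 0 counts in every library, and *Hba-a2* was at 0 in 3 of the groups and had a mean of 0.0360 CPM in wild-type embryos of the *Carm1* line. Globin genes have near-identical copies and the counting rule for reads that fit several of them is not known here, so these zeros and the level of *Hbb-bs* cannot be read as the amount of RNA of a single copy. None of the 9 was called in the *Pax3* line, at adjusted *P* values of 0.16 or more.

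Hepatocyte markers, which report the fetal liver, were lower in the *Carm1* line for 9 of 10 genes, with a median log2 fold change of -1.04. Their summed level was 1396 to 1709 CPM in wild-type and 735 to 865 CPM in *Carm1* KO/KO embryos, groups that did not overlap. In the *Pax3* line 2 of 10 were lower and 1 higher, and the sums of 1004 to 1217 CPM in wild-type and 854 to 941 CPM in *Pax3* Sp2H/Sp2H embryos did not overlap either. Macrophage markers were lower for 3 of 10 genes in the *Carm1* line. In whole embryos they do not report the macrophages of the liver apart from those of other tissues. Among these were 2 genes of low level, *Marco* (3.11 and 0.396 CPM, -2.95, adjusted *P* = 4.5e-08) and *Cd5l* (2.93 and 1.07 CPM, -1.46, adjusted *P* = 0.0025). The 10 macrophage markers had a median log2 fold change of 0.0055 there, with 5 below 0 and 5 above 0. Their sums overlapped, at 200.6 to 205 CPM in wild-type and 189.5 to 206 CPM in mutant libraries, with *Vcam1* alone at means of 79.5 and 74.8 CPM. In the *Pax3* line 2 of the 10 macrophage markers were lower and 1 higher. Megakaryocyte and platelet markers gave 2 of 8 lower and 1 higher in the *Carm1* line, with sums of 102 to 126 CPM in wild-type and 97.6 to 103 CPM in mutant libraries, and 2 of 8 higher in the *Pax3* line. Of 8 mast cell markers, 4 could be tested in the *Carm1* line, and all 4 were called higher. *Cma1* (0.325 and 2.66 CPM) and *Ms4a2* (0.192 and 0.750 CPM) passed the filter only through the mutants. The count of tested markers is therefore tilted to higher ones. *Cpa3* was at 2.59 and 9.48 CPM (edgeR adjusted *P* = 6.6e-10). The sums of 45.1 to 49.1 and 63.8 to 65.1 CPM were mostly *Kit* (means 44.6 and 50.7 CPM), and *Fcer1a* was at 0 counts in every library. Neither of the 2 mast cell markers that could be tested in the *Pax3* line was called. Skeletal muscle markers were lower for 8 of 9 genes in the *Carm1* line and for 7 of 9 in the *Pax3* line. Endothelial markers were higher for 2 of 8 genes in the *Carm1* line and for 1 of 8 in the *Pax3* line, and none was lower.

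*Epor* lies on the chromosome of the targeted gene, 412.0 kb from the start of *Carm1* (chr9:21958897-21963506 and chr9:21546894-21592623, GRCm38, the build of the counts), so any chromosome segment carried along with the KO allele cannot be told apart from the loss of *Carm1* in its value. Of the 67 tested genes with a start within 1 Mb of that of *Carm1*, 4 were lower (*Epor*, *Icam4*, *Pde4a* and *Elavl3*) and 1 higher in the *Carm1* line, 7.46% against 13.3% of all genes. *Icam4*, which carries the LW blood group, fell from 9.53 to 5.49 CPM there (log2 fold change -0.79, adjusted *P* = 0.00015) and, like *Epor*, rose in the *Pax3* line, with every *Pax3* Sp2H/Sp2H library above every wild-type library. In that line, in which the targeted gene is on chromosome 1, 3 of the 67 genes were lower and 22 higher, 37.3% against 24.5% of all genes. The other members are spread over the genome, with *Slc4a1* at chr11:102348824-102366203, *Ank1* at chr8:22974844-23150497, *Sptb* at chr12:76580488-76710547, *Epb42* at chr2:121017891-121037072, *Rhag* at chr17:40811126-40840754, *Kel* at chr6:41686330-41704339 and *Tfrc* at chr16:32608920-32632794. *Sptb* shares 1 exon overlap with *Plekhg3* on the opposite strand.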

How the data were processed

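Polyadenylated RNA of 12 single whole embryos was sequenced. The authors used STAR for alignment of the read pairs (mm10) and featureCounts to count those on exons, and the deposited values are raw counts, with no normalization or pooling. Tool versions, strandedness and the handling of multi-mapping reads are not given in the sources used here. Groups and replicate numbers came from the sample labels. Members, gene lists, alternatives and the rule for naming genes were chosen with earlier results of these data known.

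Each line was tested on its own with edgeR 4.0.16 (R 4.3.3): TMM, filterByExpr, robust quasi-likelihood test, Benjamini-Hochberg adjustment over all genes tested, threshold 0.05. This replaced DESeq2, which the methods of the study name and which was run as an alternative (1.42.0). The interaction used 1 fit of 12 libraries. Intervals are 95%. An exact permutation test of 3 against 3 libraries cannot go below *P* = 0.1. Named are the members, the targeted genes, up to 4 called genes per list, direction and line with the smallest adjusted P, direct partners of members, the genes most alike in pattern and markers that a result turns on; *Pde4a* and *Elavl3* were named after their values were seen. Some genes that this rule names are not reported here.

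CPM and fold changes were computed here. Exon lengths and coordinates came from GENCODE M21 (GRCm38, the same build as mm10), in which 21785 of 23420 symbols matched as written and 1277 through an older symbol. Of the listed genes 174 of 175 had a row. Replicates had r of log2 CPM between 0.994 and 0.996, and none were identical. The tests were checked on simulated data with 200 changed genes. Alternatives were RLE factors, no filter, at least 10 counts in every library, DESeq2, 1 fit of 12 libraries, the replicate number as a block, a term for libraries with at least 100 Y-linked counts, length and GC offsets (splines with 5 degrees of freedom) and leaving out each library.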

Additional observations from a re-analysis of the deposited data

Results flagged for a closer look

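For the genes below, all with fold changes given above, the effect of the mutation differed between the lines by the interaction test (edgeR with Benjamini-Hochberg adjustment over 16292 genes, of which 19.1% were called). Values are the log2 fold change in the *Carm1* line minus that in the *Pax3* line. Strain and colony differ between the lines and cannot be told apart from the targeted gene.

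Among the members these were *Epor*, at -1.02 (adjusted *P* = 2.6e-06), and *Tfrc*, at -0.30 (adjusted *P* = 0.011). Of the membrane skeleton genes, *Dmtn* differed by -0.69 (adjusted *P* = 5.3e-06). Of the surface and transport genes, *Icam4* differed by -1.51 (adjusted *P* = 1.8e-06), *Kcnn4* by -0.998 (adjusted *P* = 8.5e-05), *Rhd* by -0.84 (adjusted *P* = 3.5e-05) and *Slc2a1* by -0.48 (adjusted *P* = 0.00017). Around EPOR, *Pim1* differed by -0.39 (adjusted *P* = 0.011) and *Podxl* by 0.30 (adjusted *P* = 0.013).

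Of the iron genes, *Tfr2* differed by -0.84 (adjusted *P* = 0.0028), *Slc25a38* by -0.38 (adjusted *P* = 0.018), *Abcb10* by -0.38 (adjusted *P* = 0.0021), *Ftl1* by -0.34 (adjusted *P* = 0.0070), *Pcbp1* by -0.21 (adjusted *P* = 0.036), *Pcbp2* by 0.26 (adjusted *P* = 0.0052) and *Ireb2* by 0.19 (adjusted *P* = 0.049). The call of *Ireb2* was kept in 6 of 19 alternatives and that of *Pcbp1* in 10 of 19, with the difference of *Pcbp1* as high as 0.029, and *Ftl1* lost its call in 1 alternative, at -0.040 (adjusted *P* = 0.76). Of the transcription regulators, *Lmo2* differed by -0.69 (adjusted *P* = 5e-06), *Tal1* by -0.66 (adjusted *P* = 5.9e-05), *Gata1* by -0.65 (adjusted *P* = 0.0023), *Klf1* by -0.62 (adjusted *P* = 0.0051), *Nfe2* by -0.56 (adjusted *P* = 0.011) and *Ldb1* by -0.34 (adjusted *P* = 0.00035), and the call of *Klf1* was lost in 1 of 19 alternatives, at -0.31 (adjusted *P* = 0.21). Of the paralogs, *Slc4a3* differed by -0.29 (adjusted *P* = 0.036), *Ank2* by 0.22 (adjusted *P* = 0.030) and *Sptbn1* by 0.22 (adjusted *P* = 0.037), calls kept in 11, 12 and 12 of 19 alternatives. *Pim1*, *Podxl* and *Slc25a38* kept theirs in 18, 17 and 16 of 19.

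Of the targeted genes, *Carm1* differed by -0.92 (adjusted *P* = 2.4e-10) and *Pax3* by 0.82 (adjusted *P* = 2.9e-05). Within the lines, *Pax3* RNA was called higher in *Carm1* KO/KO embryos (log2 fold change 0.375, edgeR adjusted *P* = 0.001). It was called lower in *Pax3* Sp2H/Sp2H embryos (-0.43, edgeR adjusted *P* = 0.0014). Of the cell type markers, *Marco* differed by -2.49 (adjusted *P* = 0.00048), *Cpa3* by 1.79 (adjusted *P* = 0.0031), *Hbb-bs* by -1.72 (adjusted *P* = 0.0083) and *Hbb-bh1* by 1.07 (adjusted *P* = 0.030, kept in 10 of 19 alternatives).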

How the results depend on the processing

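In the *Carm1* line 8 members were called under 13 of 14 alternatives, and 3 in 1 fit of all 12 libraries. Only wild-type replicate 3 of that line held at least 100 Y-linked counts. The term for Y-linked counts there gave the same fold changes of the members as leaving that library out. These 2 alternatives are thus not separate checks in any count of 14 for the *Carm1* line. The number of genes called there, 2106, was 3161 with length and GC offsets and 1224 to 2290 with 1 library left out. In the *Pax3* line 2 members were called, against 4 with a term for Y-linked counts, 1 with length and GC offsets, 3 with DESeq2 and 1 to 5 with 1 library left out: 1 without wild-type replicate 1, mutant replicate 2 or mutant replicate 3, and 5 without wild-type replicate 3. The number of genes called there, 3851, was 2454 to 4103 with 1 library left out, and that in the other lists, 30, was 18 with offsets and 17 to 35 with 1 library left out. With offsets the sign turned in the *Pax3* line for *Tfrc* (0.060), *Ireb2* (0.00), *Pcbp1* (-0.010), *Ftl1* (-0.067), *Klf1* (-0.27) and *Gata1* (-0.11), and for the difference of *Sptb* between the lines (0.025). With 1 library left out, uncalled values ranged from -0.30 to -0.016 for *Slc4a1* in the *Pax3* line and crossed 0 there for *Epb42* (-0.43 to 0.099), *Kel* (-0.33 to 0.010), *Klf1* (-0.067 to 0.20) and *Gata1* (-0.027 to 0.12), and between the lines for *Ank1* (-0.21 to 0.026) and *Sptb* (-0.15 to 0.13). The cause was not tested. *Epor* had the lowest counts of the members, from 217 in a library, and the parts of counting error and of the spread between embryos in the intervals were not separated.

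With the replicate number as a block, 8 members were called in the *Carm1* line and 4 in the *Pax3* line (*Ank1*, *Sptb*, *Rhag* and *Epor*), and *Epor* and *Tfrc* differed between the lines. The numbers did not pair the embryos: same-numbered libraries had correlations of their deviations between -0.042 and 0.00082 in the *Carm1* line and between -0.092 and 0.23 in the *Pax3* line, and not every library correlated best with its own number.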
